A study of Gallus gallus with 20 samples.

Results

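Gene expression was compared between 4 and 2 hours post stimulation (hps) in chicken HD11 cells that had been given 1 μg/ml of endotoxin. The comparison rested on 6 arrays of the 20 in the series, namely the 3 endotoxin-stimulated arrays at 4 hps and the 3 at 2 hps, taken by their labelled dose and time and paired by replication, and no vehicle-treated array entered it. HD11 is a macrophage-like line transformed by the avian myelocytomatosis virus MC29, so all groups were cells of 1 transformed line that divides in culture. The endotoxin was a butanol extract of Salmonella typhimurium-798 (ST-798). The other groups were endotoxin-stimulated cells at 1 and 8 hps (3 arrays each) and vehicle-treated cells (0 μg/ml) at 1, 2, 4 and 8 hps (2 arrays each). The paper's RNA and QPCR methods describe RNA pooled from flasks of 1 treatment and replications on different days. Its array methods do not repeat the days. Only replications 1 and 2 had vehicle-treated arrays. A comparison of times within stimulated cells answers which transcripts moved between 2 and 4 hps, and it holds both what endotoxin did and what time in culture did, which the vehicle-treated arrays were used to set beside it.

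Lipopolysaccharide from Gram-negative bacteria is sensed by Toll-like receptor 4 on macrophages, which activates NF-kB and the MAP kinases. Transcripts of cytokines, chemokines and the inhibitors of NF-kB itself are known to rise within the first hours. Heat shock proteins are chaperones that keep other proteins folded, and their genes are driven by heat shock factors when unfolded protein accumulates. Cholesterol is built from acetyl-CoA by way of mevalonate and squalene, and the enzymes of that route are known to be regulated together by sterol regulatory element binding proteins.

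Markers of macrophages were bright on these arrays. The median level of 18 measured macrophage markers was 10.6 on the log2 scale over the 12 endotoxin-stimulated arrays, against 6.72 for all named genes. SPI1, the myeloid transcription factor PU.1, averaged 12.5, the receptor CSF1R 10.5 and lysozyme (LYZ) 12.6, while the scavenger receptor MARCO was dim at 5.45. Medians were 4.49 for 15 T cell markers, 5.14 for 11 B cell markers, 5.08 for 9 erythroid markers and 4.32 for 19 fibroblast markers. Of the B cell markers 1 was called, the probe set that the array names BLNK, which rose by 0.58. Its accession now carries the name SH2D6, so it may not measure that marker. None of the macrophage, T cell, erythroid, fibroblast or thrombocyte markers was called between 2 and 4 hps (limma), although 2, 0, 0, 1 and 0 of them were higher and 3, 1, 2, 3 and 3 lower at an unadjusted p under 0.05. Of all named genes 0.479% were called higher and 0.283% lower, so an absence of calls in lists this small says nothing about their members. At that p 8.54% of all named genes were higher and 7.36% lower. All 8 measured thrombocyte markers lay below 0 (median -0.16).

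The differences between 4 and 2 hps were small. Of 38439 probe sets tested, 139 were higher at 4 hps (0.362%) and 96 were lower (0.250%), 235 in all (0.611%), at a q value under 0.05 by limma with a term for replication, fitted to the 12 endotoxin-stimulated arrays of all times. A q value is the estimated share of false calls among probe sets at least as significant, with the number of unchanged probe sets read from a histogram of p values. The called differences had a median size of 0.47 on the log2 scale, the smallest being 0.30, and 4 rises but 0 falls reached a doubling or a halving. Each of the 235 had the same sign in all 3 replications, as had 33.7% of all probe sets, and the arrays of the times did not overlap for 228 of them, as for 15.3% of all probe sets. Nearly every called probe set was thus apart, so where a called gene is said below not to overlap, that adds nothing to its call. At an unadjusted p under 0.05, 2860 probe sets were higher and 2513 lower, where 1922 in total would be the 5% of all probe sets tested. The 235 covered 109 named genes that rose and 65 that fell by at least 1 probe set. Represented by its brightest probe set, 66 of 13782 named genes rose (0.479%) and 39 fell (0.283%).

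These calls depended on all 3 replications and on the size of the fit. No probe set was called without replication 2 (smallest q 0.07) or without replication 3 (smallest q 0.066, with 3595 probe sets at an unadjusted p under 0.05), and 2 higher and 1 lower were called without replication 1. The endotoxin arrays of replication 3 at 1 and 2 hps stood apart from the other 10 on the first principal component (32.9 and 33.1 against -23.0 to 9.69). Without both of them 4 probe sets were called higher and 0 lower, and without the 2 hps array alone 11 and 8. Without the term for replication 26 were higher and 12 lower. The actin control signal near the 3' end minus that near the 5' end, a sign of RNA integrity, was -0.02, 0.08 and 0.11 in the 3 replications of 2 hps. In those of 4 hps it was 0.01, -0.11 and -0.15. With that signal in the model 5 probe sets were higher and 1 lower, and its part in the results was otherwise not tested. A fit to all 20 arrays called 326 higher and 246 lower, 222 of the 235 among them. Centring the arrays on ribosomal proteins put the median difference of all probe sets at 0.066 and moved the split to 614 higher and 68 lower, so that 90.0% of calls were rises in place of 59.1%.

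**Figure D1:**
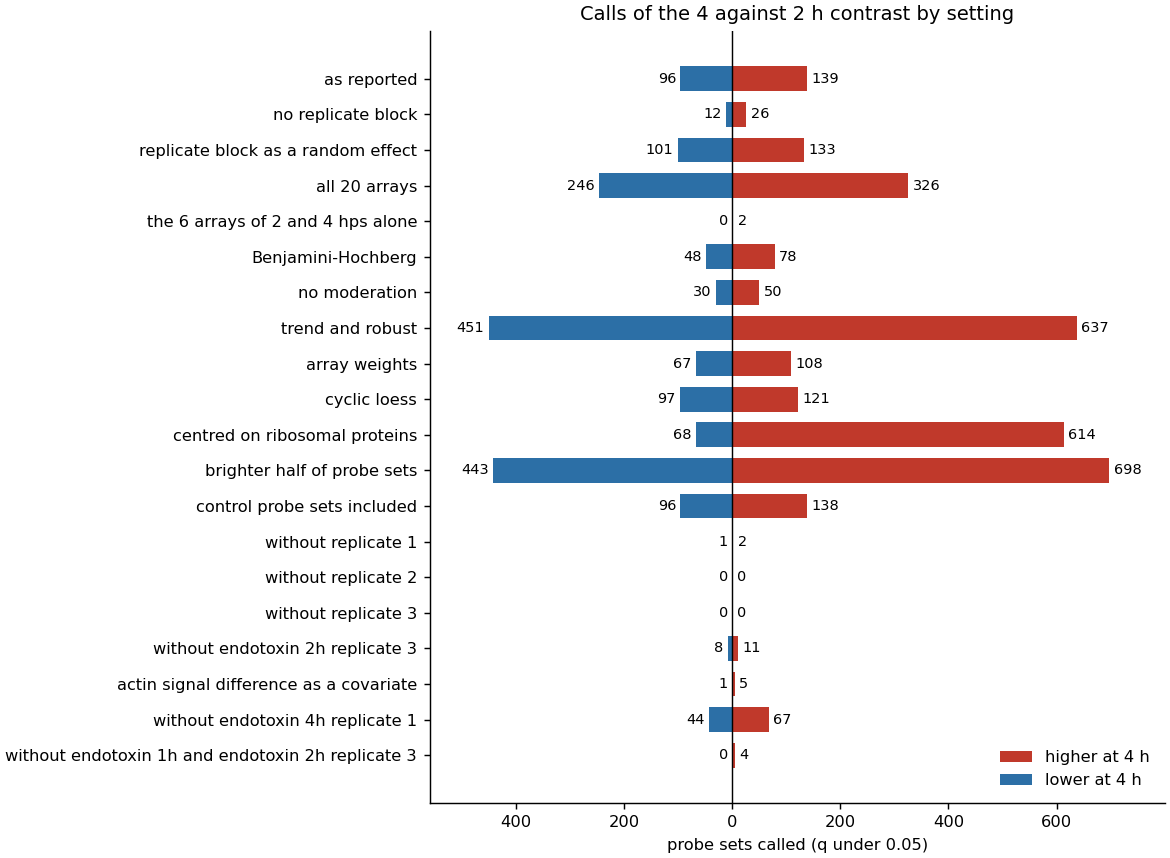
Number of probe sets called higher (red, to the right) and lower (blue, to the left) at 4 than at 2 hps in endotoxin-stimulated cells, out of 38439, as reported and under 19 other settings. The counts were 139 and 96 as reported, and between 0 and 2 in each direction when a whole replication was left out.

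Heat shock genes held the largest rises. Of 37 measured members of a list of heat shock proteins and chaperones, 7 rose and 1 fell, which is 18.9% and 2.70% against 0.479% and 0.283% of all named genes. The median difference of the list was 0.07, against 0.00 for all named genes, so most of the list moved little and a few members moved far. The list and its members were chosen with results of these data known, and the counts are a description.

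HSP70 is the stress-inducible chaperone of its family and goes by HSPA2 in current RefSeq naming. Its probe set read 9.84, 9.74 and 9.48 in replications 1 to 3 at 2 hps and 10.84, 10.80 and 10.78 at 4 hps. Every array at 4 hps lay above every array at 2 hps, and the values at 4 hps were close together. The difference was 1.12 ± 0.10 (SE, q = 0.0027), a fold of 2.18. HSPA8, the constitutive member that is abundant in unstressed cells, rose by much less. It read 13.18, 13.33 and 13.35 at 2 hps and 13.67, 13.62 and 13.60 at 4 hps, a difference of 0.34 ± 0.07 (q = 0.046), again with no overlap. HSPH1, a larger relative that exchanges the nucleotide on HSP70, went from 7.55, 7.50 and 7.67 to 8.49, 8.04 and 8.05 (0.62, q = 0.046). The remaining members of the family were not called, with 0.26 for HSPA4L, 0.24 for HSPA4 and -0.02 for the mitochondrial HSPA9.

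HSP90AA1, the inducible cytosolic HSP90, was called on both of its probe sets with different sizes. The brighter of them read 12.81, 12.78 and 12.84 at 2 hps and 13.28, 13.32 and 13.28 at 4 hps (0.48 ± 0.06, q = 0.013). The dimmer read 10.48, 10.14 and 9.77 at 2 hps and 12.01, 11.42 and 11.08 at 4 hps (1.37 ± 0.16, q = 0.010), the largest rise among all called probe sets. Neither overlapped between times, but the dimmer probe set had an SD of 0.36 at 2 hps and 0.47 at 4 hps, its order of replications being the same at both times. Among the partners of HSP90, CHORDC1, which binds it through its zinc-binding domains, went from 8.49, 8.38 and 8.51 to 9.05, 9.01 and 9.06 (0.58 ± 0.07, q = 0.010). AHSA1, AHSA2, FKBP4 and FKBP5 differed by 0.22, 0.27, 0.22 and 0.21 and CDC37 by -0.13, none of which was called. Of the 7 measured members of this group, HSP90AA1 included, 2 rose (HSP90AA1 and CHORDC1) and 0 fell, where 0.479% and 0.283% of all named genes did.

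J-domain proteins hand clients to HSP70. The probe sets that the array names RCJMB04_15h2 carry an accession that RefSeq now calls DNAJA1, which is no member of the list under its array name. The brighter read 9.32, 9.38 and 9.34 at 2 hps and 10.73, 10.52 and 10.42 at 4 hps, a rise of 1.21 ± 0.09 (q = 0.0010), and the other rose by 1.21 as well. The groups were over 1 unit apart. DNAJA4 rose on its brightest probe set from 9.86, 9.86 and 9.91 to 10.33, 10.42 and 10.41 (0.51 ± 0.06, q = 0.010), and on a dimmer one by 0.68, while its dimmest pair differed by 0.02 and 0.11. The other 4 measured J-domain members, DNAJA2, DNAJB4, DNAJB5 and DNAJB6, lay between -0.13 and -0.04 and were not called.

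BAG proteins release the client from HSP70, and the members of the family moved in opposite directions. BAG3, itself a heat shock gene that links HSP70 to autophagy, read 7.66, 7.42 and 7.49 at 2 hps and 8.39, 8.32 and 8.24 at 4 hps (0.80 ± 0.08, q = 0.0032). Its second probe set rose by 0.71. BAG1 was the only member of the list that fell, from 9.55, 9.54 and 9.49 to 9.16, 9.21 and 9.01 (-0.40 ± 0.08, q = 0.044). BAG4 differed by 0.13. No array of one time overlapped the other for BAG1 or BAG3.

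The other chaperone classes were not called. The 8 subunits of the cytosolic chaperonin ring, TCP1 and the CCT genes, lay between 0.02 and 0.12. The 4 small heat shock proteins HSPB1, HSP25, HSPB8 and CRYAB lay between -0.11 and 0.07. The heat shock factors HSF1 and HSF2 differed by -0.03 and -0.04, and the mitochondrial cochaperonin HSPE1 by -0.09. In the fits without 1 replication 1, 0 and 0 members of the list were called higher, without the replication 3 arrays of 1 and 2 hps 2, and with the actin signal 2. HSP70 and DNAJA1 were called without replication 1, without the replication 3 arrays of 1 and 2 hps and with the actin signal.

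**Figure D2:**
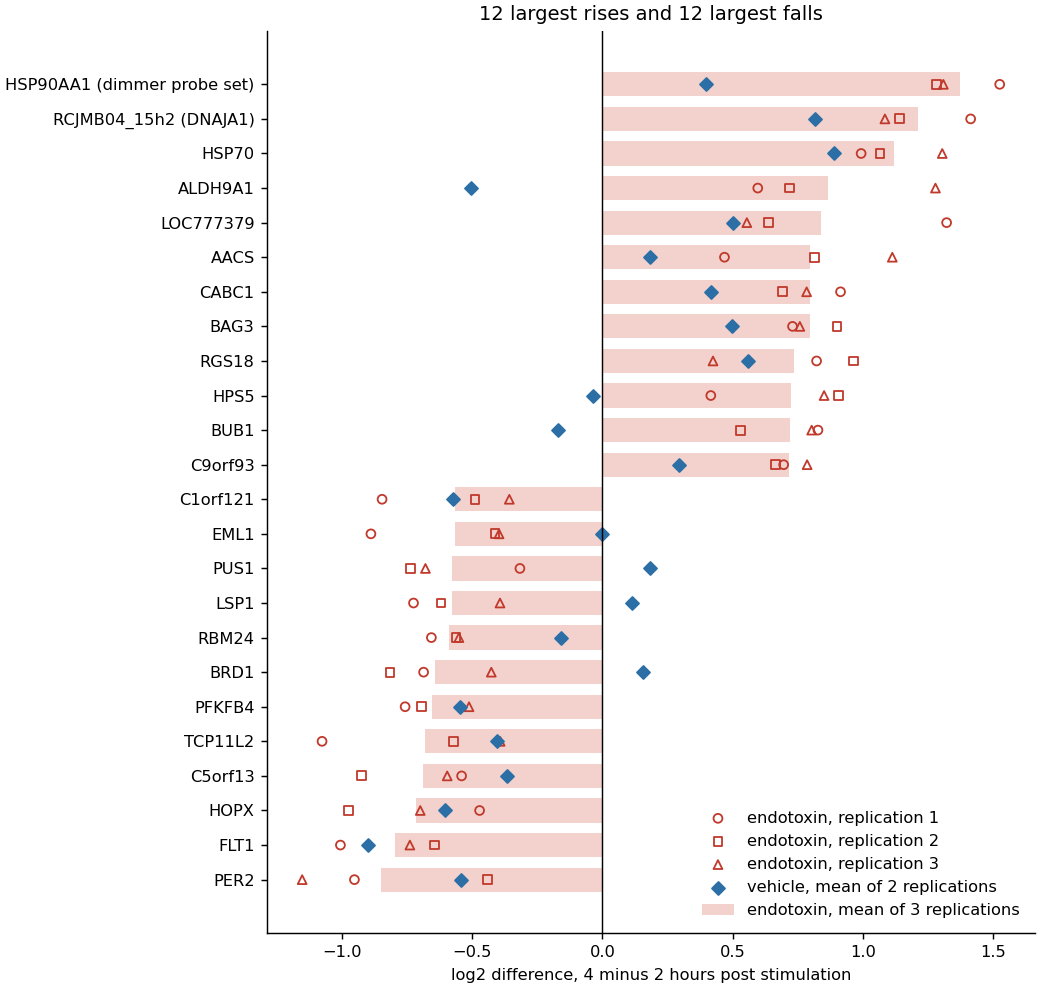
Difference on the log2 scale between 4 and 2 hps for the 12 largest rises and 12 largest falls among called probe sets with 1 gene name. Bars are the mean over 3 replications of endotoxin-stimulated cells, open red symbols the single replications and blue diamonds the mean of 2 replications of vehicle-treated cells. The 3 red symbols of each gene lie on the same side of 0. The blue diamonds of HSP70 (0.89) and FLT1 (-0.90) lie close to the bars and those of ALDH9A1 (-0.51) and BUB1 (-0.17) do not. For ALDH9A1 and BUB1 the vehicle fall lay in replication 1 (5.86 to 4.85 and 6.78 to 6.33). Replication 2 had 5.96 to 5.96 and 6.73 to 6.84. Their other called probe sets had vehicle differences of 0.13 and -0.06 (ALDH9A1) and 0.29 (BUB1). The difference of the changes was called for neither (limma, q = 0.076 for each).

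Outside the chaperones, the largest rises were in genes of varied function. ALDH9A1, a dehydrogenase of carnitine synthesis, was called on all 3 of its probe sets with 0.38, 0.56 and 0.87. The probe set with the largest difference was also the dimmest, reading 5.75, 5.58 and 4.65 at 2 hps and 6.34, 6.30 and 5.93 at 4 hps. Its groups did not overlap, although replication 3 at 2 hps stood nearly 1 unit below the other arrays of that time. AACS, which activates acetoacetate in the cytosol for lipid synthesis, rose on both probe sets (0.62 and 0.80). With replication as a random effect, which estimates a correlation within replications, the dimmest ALDH9A1 probe set had a q of 0.0571. In that fit the AACS probe set at 0.80 had a q of 0.0504. CABC1, a kinase-like protein needed for coenzyme Q synthesis, went from 8.25, 8.12 and 7.99 to 9.17, 8.81 and 8.77 on 1 of 2 probe sets (0.80 ± 0.12, q = 0.021). Its means at 1, 2, 4 and 8 hps were 9.24, 8.12, 8.92 and 9.97 with endotoxin and 9.58, 8.23, 8.64 and 10.19 with vehicle. The level at 4 hps was thus still below that at 1 hps in both treatments, and 2 hps was the lowest time. RGS18, which turns off G protein signals in blood cells, went from 7.04, 6.90 and 7.40 to 7.87, 7.87 and 7.82 (0.74 ± 0.10, q = 0.015), again without overlap. HPS5, part of a complex that sorts cargo to lysosome-related organelles, rose by 0.72 ± 0.12 (q = 0.029), and C9orf93 by 0.72. LOC777379, which has no name beyond its locus, rose by 0.84. Among genes singled out after their values had been seen, the nuclear export receptor XPO1 rose by 0.59 on its brightest probe set and the peroxisomal hydroxylase PHYH by 0.53 and 0.58 on its pair.

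Enzymes of cholesterol synthesis were another group with several rises. Of 34 measured genes that make, import or export sterols, 3 rose (8.82%) and 0 fell, against 0.479% and 0.283% of all named genes, with a median of 0.09. NSDHL, which removes the C4 methyl groups of sterols, read 10.41, 10.44 and 10.24 at 2 hps and 10.95, 10.99 and 10.90 at 4 hps (0.58 ± 0.09, q = 0.019). FDPS, which makes farnesyl diphosphate, went from 10.68, 10.44 and 10.40 to 11.04, 11.02 and 10.97 (0.50 ± 0.10, q = 0.046). Mevalonate kinase (MVK) went from 9.64, 9.62 and 9.53 to 9.91, 10.01 and 9.94 on 1 of 2 probe sets (0.36 ± 0.07, q = 0.044). The 2 times did not overlap for these 3 enzymes, and FDPS had a q of 0.0622 with replication as a random effect. All 9 measured enzymes from squalene synthase to the end of the route were above 0, from 0.06 for CYP51A1 to NSDHL, with DHCR7 at 0.31, LSS at 0.29 and FDFT1 at 0.26 among those not called. The median of these 9 was 0.26 with endotoxin and 0.21 in vehicle-treated cells, where they lay between -0.03 and 0.63. HMGCS1, an early enzyme of the route, differed by -0.06. Of the 6 regulators and the 9 genes of uptake, transport and efflux none was called, the lowest being SREBF1 at -0.25 and the cholesterol exporter ABCG1 at -0.35. The median of the whole list was 0.01, 0.09 and 0.20 in replications 1, 2 and 3, and 0.07 in vehicle-treated cells. No member was called without any 1 of the replications, nor without the replication 3 arrays of 1 and 2 hps.

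The largest fall of all, 0.91, was on a probe set with no gene name, which read 9.54, 9.65 and 9.87 at 2 hps and 8.89, 8.72 and 8.72 at 4 hps. It was also the fall still called without replication 1. The largest falls among probe sets with 1 gene name were in genes of varied function. PER2, a repressor of the circadian clock, fell on 2 of its 5 probe sets. One read 6.35, 5.67 and 5.82 at 2 hps and 5.40, 5.22 and 4.67 at 4 hps (-0.85 ± 0.14, q = 0.028), the other fell by 0.65, and the remaining 3 differed by 0.06, 0.11 and 0.23. With replication as a random effect the PER2 probe set at -0.85 had a q of 0.0876. FLT1, a receptor for vascular endothelial growth factor, fell on 1 of 3 probe sets from 6.10, 5.54 and 5.57 to 5.09, 4.89 and 4.83 (-0.80 ± 0.09, q = 0.010). HOPX, a homeodomain protein that does not bind DNA, fell on both of its bright probe sets, on one from 10.88, 11.21 and 11.00 to 10.40, 10.24 and 10.30 (-0.72 ± 0.12, q = 0.028). All these groups of arrays were apart. PFKFB4, which sets the level of the glycolytic activator fructose-2,6-bisphosphate, fell on 1 of 5 probe sets (-0.65, q = 0.010). RBM24, an RNA-binding protein, had the tightest values, 9.44, 9.35 and 9.34 at 2 hps and 8.79, 8.78 and 8.79 at 4 hps (-0.59 ± 0.07, q = 0.010). That was 1 of its 2 probe sets, and the other differed by -0.28 and was not called.

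Other named genes fell as well. LSP1, an actin-binding protein of leukocytes, went from 10.19, 9.97 and 9.92 to 9.46, 9.35 and 9.53 on 1 of its 5 probe sets (-0.58 ± 0.08, q = 0.017). Telomerase reverse transcriptase (TERT) went from 11.82, 11.72 and 11.61 to 11.19, 11.16 and 11.15 (-0.55 ± 0.08, q = 0.017). Both were apart at the 2 times. The lysophosphatidic acid receptor P2RY5, now LPAR6, fell on both probe sets (-0.55 and -0.49), as did the endothelin receptor EDNRB (-0.47 and -0.55), which was singled out after its values had been seen. With replication as a random effect the P2RY5 probe set at -0.55 had a q of 0.0571. RGS4, another regulator of G protein signalling, fell from 8.75, 8.64 and 8.47 to 8.14, 8.11 and 8.15 (-0.49), while its relative RGS18 rose. C5orf13 (NREP), TCP11L2, BRD1, PUS1, EML1 and C1orf121 (DESI2) fell by between 0.69 and 0.56, and RCJMB04_12b15 (CWC22) by 0.56. For PUS1, EML1, BRD1, TCP11L2, C1orf121 and RCJMB04_12b15 the other probe sets of the same gene were not called. The highest of them went the other way for BRD1 (0.28), EML1 (0.15) and RCJMB04_12b15 (0.16).

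Of 32 measured inflammatory genes that the study named, 3 rose (9.38%, against 0.479% of all named genes) and 0 fell, with a median of 0.01. Not all were named as responding to endotoxin, since the study measured no induction of IFNG, for example. That list was chosen on these samples and is no independent evidence of direction. IL1R2, the decoy receptor that binds interleukin-1 without signalling, read 7.81, 7.85 and 7.81 at 2 hps and 8.38, 8.54 and 8.41 at 4 hps (0.62 ± 0.07, q = 0.010). BLNK, as the array names it, whose accession now carries the name SH2D6, went from 6.15, 6.24 and 6.02 to 6.67, 6.79 and 6.68 (0.58 ± 0.07, q = 0.010). The matrix metalloproteinase MMP23B went from 7.99, 7.93 and 7.89 to 8.48, 8.32 and 8.15 on 1 of 3 probe sets (0.39 ± 0.08, q = 0.046). None of the 3 overlapped between the times, and MMP23B had a q of 0.0761 with replication as a random effect.

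The 29 others were not called. NFKBIA, which holds NF-kB in the cytosol and is induced by it, read 12.21, 11.96 and 12.10 at 2 hps and 12.03, 12.01 and 11.96 at 4 hps (-0.09 ± 0.09). TNFAIP3 (A20), a brake on NF-kB signalling, read 11.51, 11.35 and 11.16 and then 11.38, 11.21 and 11.15 (-0.09 ± 0.07). The times overlapped for both. IL1B differed by 0.25 ± 0.10 and IL8, a neutrophil-attracting chemokine, by -0.05 ± 0.21. In replication 1 at 2 hps IL8 read 10.83, against 10.00 and 9.73 in the others, and 10.19, 10.13 and 10.08 at 4 hps. CCL4 and CD83, a chemokine and a surface marker of activated cells, had the same shape, with 9.48 and 7.82 in replication 1 at 2 hps against 8.63 or less and 6.55 or less in the others. Their differences were -0.25 ± 0.27 and 0.02 ± 0.23, so their spread at 2 hps was larger than the mean difference. Nearest to the threshold were CCL17 (0.43, q = 0.07), FAS (-0.32, q = 0.079) and the adenosine receptor ADORA2B (0.26, q = 0.082). The other of 2 FAS probe sets went the opposite way (0.24) and was not called. IL6 and IFNG stayed dim, near 3.4 and 3.9 at 2 hps, and differed by 0.19 and -0.12.

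Other signalling lists were too small for their counts to be read against the 0.479% and 0.283% of all named genes that were called. In the lists of NF-kB subunits and inhibitors (30 measured), chemokines and their receptors (21), MAP kinase phosphatases (14), Toll-like and NOD-like receptors with their adaptors (25) and JAK-STAT inhibitors and signal transducers (21), 0 genes were called, while 6, 1, 1, 5 and 4 were higher and 2, 1, 3, 1 and 1 lower at an unadjusted p under 0.05, where 8.54% and 7.36% of all named genes were. Among 45 interleukins, growth factors and receptors only IL1R2 was called. Among 24 genes of the TNF superfamily and death receptors, TNFAIP8, which restrains apoptosis, fell on 1 of 2 probe sets from 12.21, 12.28 and 12.15 to 11.70, 11.87 and 11.87 (-0.40 ± 0.08, q = 0.048). Among 35 immediate early genes, the helix-loop-helix inhibitor ID1 fell from 9.67, 9.31 and 9.54 to 8.94, 9.00 and 9.05 (-0.51 ± 0.10, q = 0.0495). With replication as a random effect its q was 0.0592. FOS, EGR1 and MYC differed by 0.02, -0.03 and 0.03.

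CD274 encodes PD-L1, a ligand on antigen-presenting cells that restrains T cells. Its dimmer probe set read 6.15, 5.91 and 5.70 at 2 hps and 6.64, 6.58 and 6.34 at 4 hps (0.60 ± 0.07, q = 0.010), with no overlap. Its brighter probe set differed by 0.26 ± 0.08 and was not called. It was the only 1 of 35 interferon response genes called by any probe set. The median of that list was -0.10, and 10 of 35 lay above 0, against 50.3% of all named genes. The lowest members, ISG12-2 (-0.68), IFIT5 (-0.56), RSAD2 (-0.51) and CMPK2 (-0.46), all known as interferon-induced, were not called, and their differences came mainly from replication 1. IFIT5 read 8.33 in replication 1 at 2 hps against 6.26 and 6.95 in the others, and 6.64, 6.71 and 6.52 at 4 hps. The list's median was -0.27 in replication 1, 0.01 in replication 2 and -0.05 in replication 3.

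**Figure D3:**
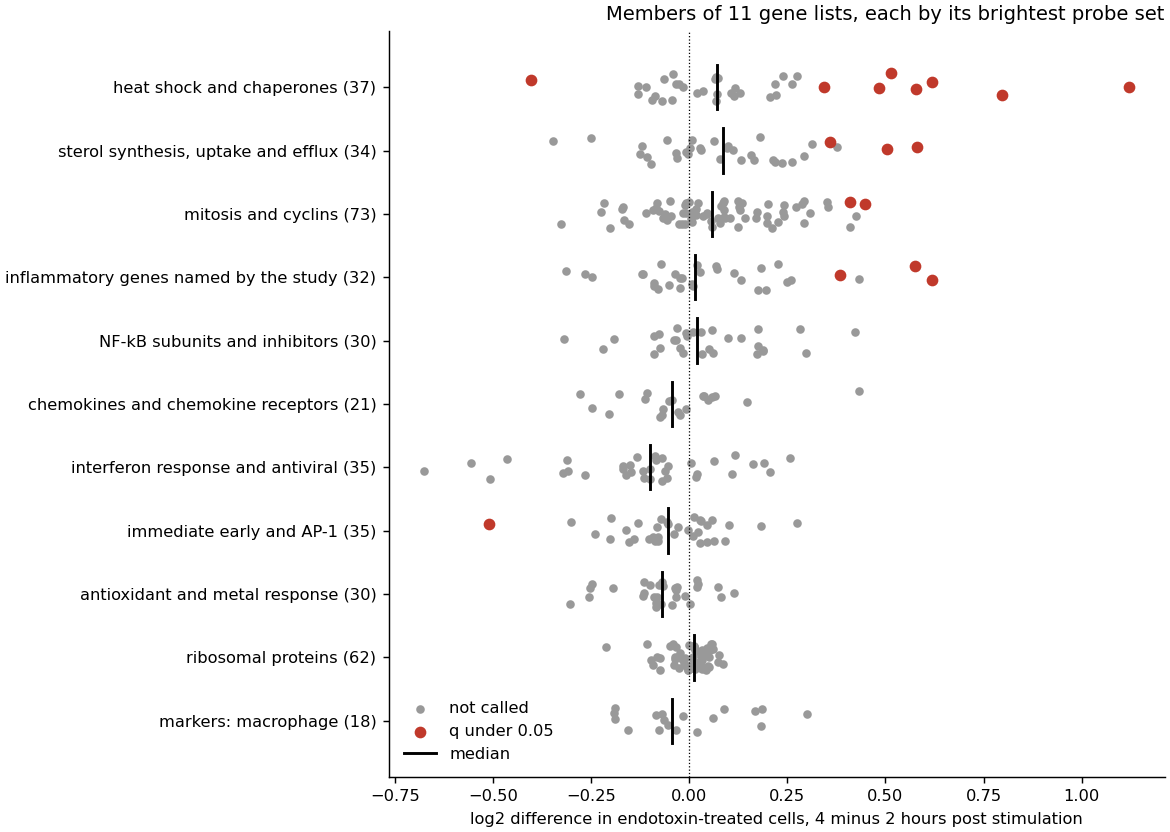
Difference on the log2 scale between 4 and 2 hps in endotoxin-stimulated cells for each measured member of 11 gene lists, with the number measured in brackets. Points are genes by their brightest probe set, red where q was under 0.05, and black bars are medians. Heat shock genes reach 1.12, while the ribosomal proteins stay between -0.21 and 0.08.

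Genes of cell division, protein synthesis and RNA gave few calls. Of 73 measured genes of mitosis and cyclins, 2 rose (2.74%) and 0 fell, against 0.479% and 0.283% of all named genes. At an unadjusted p under 0.05 (limma) 17 were higher and 3 lower, against 8.54% and 7.36% of all named genes. No member was called without any 1 of the replications. The spindle checkpoint kinase BUB1 rose on 2 of 3 probe sets (0.45 and 0.72). The probe set at 0.72 had a q of 0.0571 with replication as a random effect. ECT2, which starts cytokinesis, went from 7.28, 7.10 and 7.03 to 7.75, 7.47 and 7.43 on 1 of 2 probe sets (0.41 ± 0.07, q = 0.037), while the other differed by 0.04. The median of the list was 0.06, and the kinetochore motor CENPE (0.41, q = 0.051) and HMMR (0.35, q = 0.064) were not called. The tRNA synthetases IARS and LARS rose on 1 of 3 and 1 of 5 probe sets (0.46 and 0.46), with q values of 0.0573 and 0.0923 under replication as a random effect. The lowest probe set of IARS differed by 0.11, and those of LARS lay between -0.09 and 0.56. The RNA polymerase I subunit POLR1A and the nucleolar helicase DDX51 rose on 1 of 4 and 1 of 2 probe sets (0.50 and 0.44), and the helicase DDX17 by 0.42 on 1 of 2. The lowest POLR1A probe set differed by -0.02. ORC3L, a subunit of the replication origin complex, rose by 0.37 and CASP2, an initiator caspase, by 0.44 on 1 of 2 probe sets (q = 0.0556 with random replication). The lactate exporter SLC16A3 went from 8.56, 8.05 and 8.24 to 8.85, 8.81 and 8.73 on 1 of 2 probe sets (0.52 ± 0.10, q = 0.047, or 0.0705 with random replication). Its other probe set differed by 0.004.

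In the endoplasmic reticulum, the lectin chaperone CANX rose by 0.34 on 1 of 2 probe sets and ERO1L, which oxidises protein disulfide isomerase, fell by 0.44. The complex I subunit NDUFB8 and the proteasome-bound deubiquitinase UCHL5 fell by 0.39 and 0.36, each on 1 of 2 probe sets (q = 0.0525 and 0.0504 with random replication). None of 62 ribosomal proteins, 53 lysosomal genes, 44 phagocyte effectors, 36 genes of fatty acid metabolism or 30 antioxidant genes was called. At the shares called over all named genes, lists of this size would hold less than 1 call each, so these zeros say nothing about their members. At an unadjusted p under 0.05 there were 0, 6, 4, 3 and 0 of them higher and 1, 3, 6, 0 and 4 lower, against 8.54% and 7.36% of all named genes. The antioxidant genes had a median of -0.07, with 7 of 30 above 0.

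Vehicle-treated cells were compared between the same times to see how far the same genes moved without endotoxin. In a fit to all 20 arrays with the replication term, 23 probe sets were higher (0.0598%) and 38 lower (0.0989%) at 4 than at 2 hps in vehicle-treated cells. Of the 139 probe sets that rose in stimulated cells 11 also rose in vehicle-treated cells, of the 96 that fell 5 also fell, and 0 were called in opposite directions. The vehicle difference was above 0 for 94 of the 139 (53.7% of all probe sets were above 0) and below 0 for 66 of the 96 (46.3% of all). Its median was 0.17 in the first set, where stimulated cells had 0.47, and -0.17 in the second, where they had -0.47. Both sets were chosen for a large difference in stimulated cells, which by itself makes the stimulated medians the larger. The sizes therefore cannot be read as an effect of endotoxin. The vehicle-treated arrays at 4 hps had actin 3' minus 5' signals of 0.35 and 0.22, where the other vehicle-treated arrays had 0.11 or less, and with that signal in the model 2 probe sets, HSP70 and GDF2, were higher and 0 lower. Without replication 1 or without replication 2, which leaves 1 vehicle-treated array a group, 0 were called (smallest q 0.242 and 0.11), and without the term for replication 4 were higher and 1 lower.

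**Figure D4:**
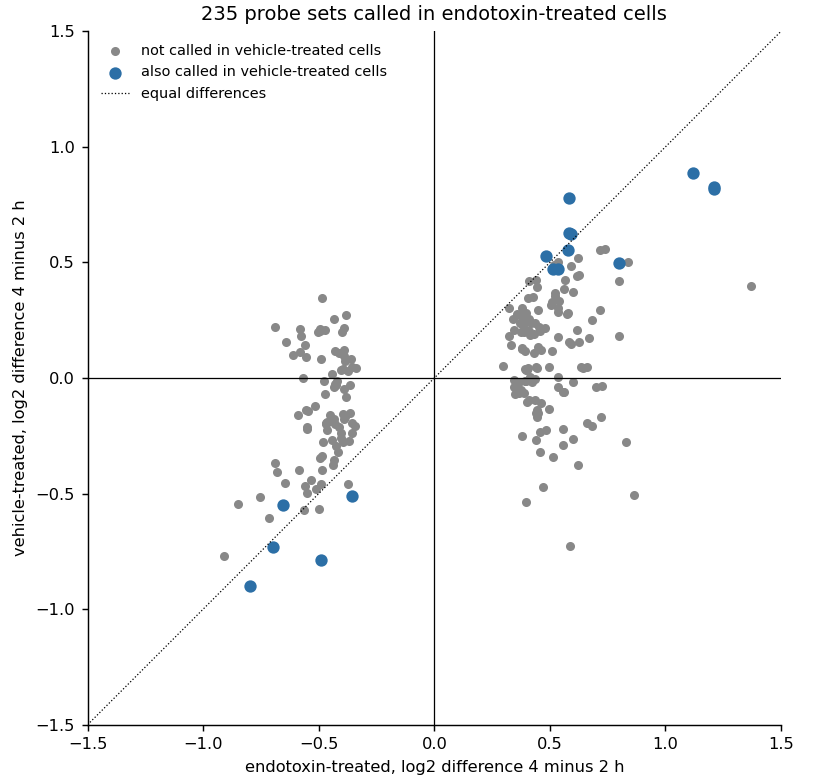
Difference between 4 and 2 hps in endotoxin-stimulated cells (horizontal) and in vehicle-treated cells (vertical), both on the log2 scale, for the 235 probe sets called in stimulated cells. Blue points, 11 that rose and 5 that fell, were called in vehicle-treated cells too, and the dotted line marks equal differences. The axes share no array, but the probe sets were chosen on the horizontal one. Distance from the dotted line therefore cannot be read as an effect of endotoxin.

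The heat shock genes moved in vehicle-treated cells as well. HSP70 read 10.01 and 9.83 at 2 hps and 10.77 and 10.84 at 4 hps without endotoxin (0.89 ± 0.11, q = 0.018). DNAJA1 (RCJMB04_15h2) went from 9.58 and 9.37 to 10.21 and 10.38 (0.82 ± 0.11, q = 0.018), BAG3 from 7.58 and 7.62 to 8.19 and 8.02 (0.50, q = 0.032) and CHORDC1 from 8.58 and 8.45 to 9.11 and 9.03 (0.55, q = 0.021). The 2 times did not overlap for these 4 genes, but with 2 arrays a group and genes chosen as called this adds nothing to the calls. HSP90AA1 rose on its brighter probe set (0.53) and DNAJA4 on its brightest (0.47), which made 5 of the 37 list members called in vehicle-treated cells. In these cells 0.0598% of all probe sets were called higher, and the share by gene was not counted. The dimmer HSP90AA1 probe set overlapped there, with 10.74 and 10.17 at 2 hps and 10.48 and 11.23 at 4 hps. None of these genes had a called difference between its change with and without endotoxin, which was 0.23 ± 0.15 for HSP70 (q = 0.33) and 0.40 ± 0.14 for DNAJA1 (q = 0.13).

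Other changes found with and without endotoxin were those of NSDHL (0.58 with and 0.63 without), PHYH (0.53 and 0.47), ALPK2 (0.58 and 0.78), FLT1 (-0.80 and -0.90), PFKFB4 (-0.65 and -0.55) and HOPX on 1 probe set (-0.70 and -0.73). WDR91 and LOC769469 completed the falls and 1 probe set with no gene name the rises. FLT1 in vehicle-treated cells went from 5.86 and 5.74 to 5.26 and 4.54. For none of these genes was the difference between the changes called.

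For some genes the vehicle-treated arrays pointed the other way. IL1R2 read 7.49 and 7.93 at 2 hps and 6.89 and 7.77 at 4 hps without endotoxin, against a rise with it, and the difference between the changes was 1.00 ± 0.19 (q = 0.075). TNFAIP8 differed by 0.20 without endotoxin and LSP1 by 0.11, where both fell with it, and the difference of the changes was called for neither. The difference of the changes was called for 3 probe sets higher (0.00780%) and 1 lower (0.00260%) in stimulated cells. The dimmer probe set of CD274 was the only 1 of these 4 that was also called in the stimulated cells alone. Without endotoxin it went from 5.86 and 5.80 to 5.49 and 5.64, a difference of -0.27 against 0.60 with endotoxin, and the difference between them was 0.87 ± 0.12 (q = 0.032). Its brighter probe set differed by 0.19 without endotoxin, in the same direction as with it.

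**Figure D5:**
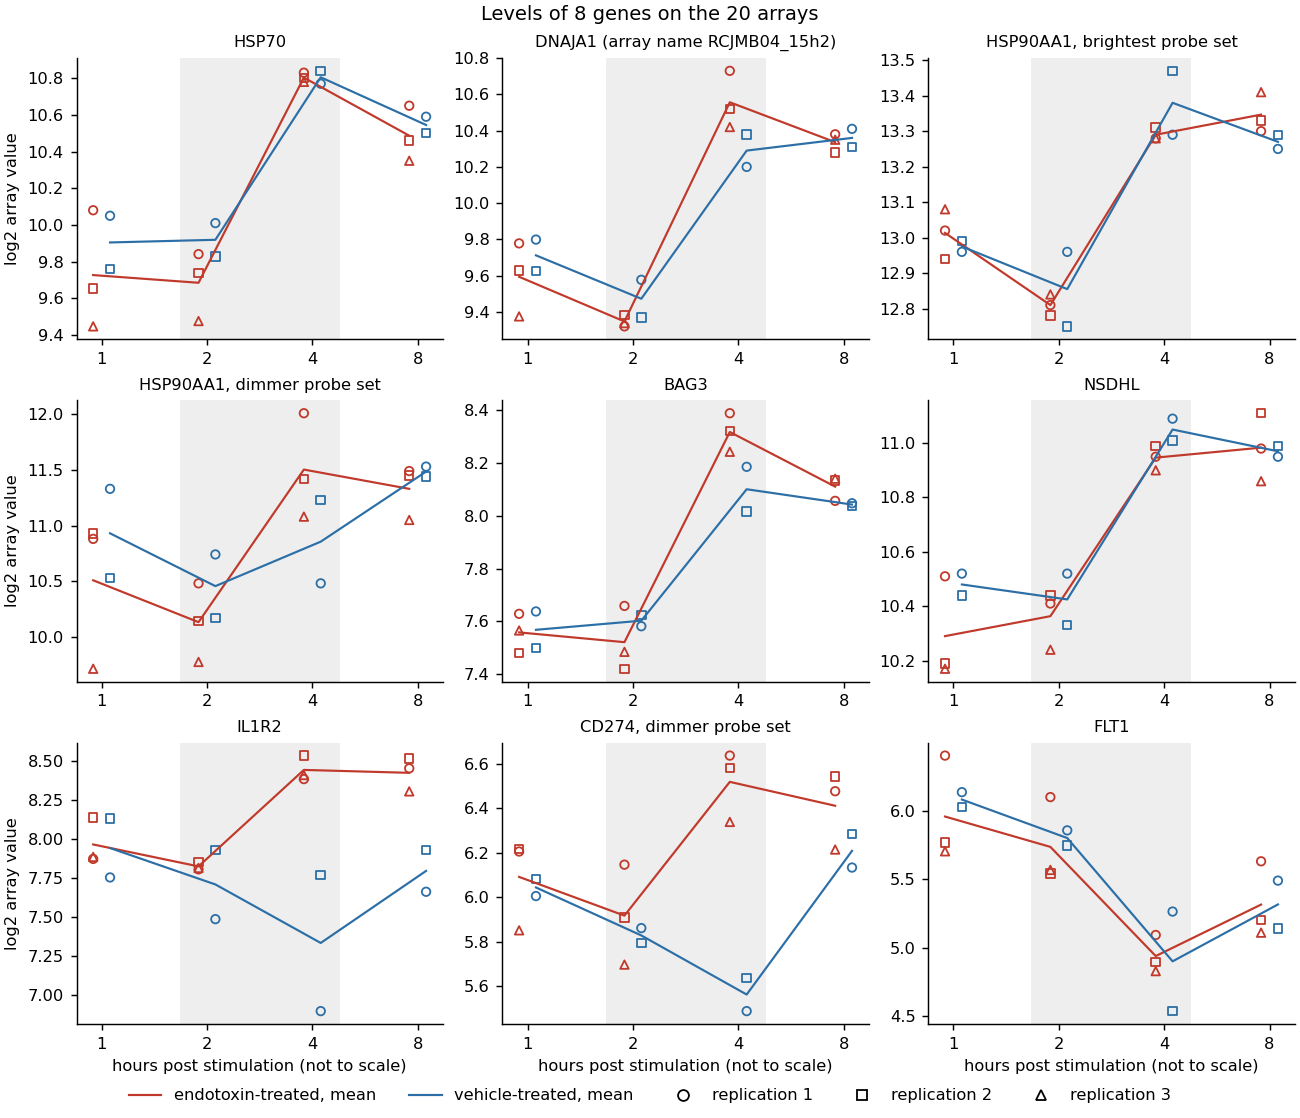
Levels of 8 genes (HSP90AA1 on both probe sets) on the log2 scale at 1, 2, 4 and 8 hps in endotoxin-stimulated (red) and vehicle-treated (blue) cells. Symbols are single arrays by replication, lines join group means and the shaded band marks 2 and 4 hps. HSP70 averaged 9.69 at 2 hps and 10.80 at 4 hps with endotoxin and 9.92 and 10.81 without, and IL1R2 averaged 7.83 and 8.44 with endotoxin and 7.71 and 7.33 without.

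The levels at 1 and 8 hps in stimulated cells place these steps. In time order, HSP70 averaged 9.73, 9.69, 10.80 and 10.49, and DNAJA1 9.59, 9.35, 10.56 and 10.34. Both were level or lower between 1 and 2 hps and stayed high at 8 hps. NSDHL averaged 10.29, 10.36, 10.95 and 10.98, and IL1R2 7.96, 7.83, 8.44 and 8.43. The fall of FLT1 went from 5.96 and 5.74 to 4.94 and 5.32. LSP1 (10.07, 10.03, 9.45 and 9.92) and RBM24 (9.33, 9.37, 8.79 and 9.16) were lowest at 4 hps. In the comparison of 8 with 1 hps, the difference was above 0 for 135 of the 139 probe sets that rose between 2 and 4 hps (45.9% of all probe sets were above 0) and below 0 for 90 of the 96 that fell (54.1% of all). That difference is taken on other arrays than the 4 against 2 hps difference. The 1 and 8 hps arrays were still in the fit that called these probe sets and shared in its spread, so this is no independent check. The replication 3 arrays of 1 and 2 hps, which stood apart together, are each in the earlier arm of their comparison. Over replications 1 and 2 alone, chosen after seeing the data, the 8 against 1 hps counts were 134 and 90, with 47.0% of all probe sets above 0.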

How the data were processed

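RNA of 20 HD11 cultures was measured on Affymetrix chicken arrays. The authors deposited log2 expression values made by RMA, that is background correction, quantile normalization and median polish, and a table of their own log2 ratios and q values, of which only the gene name columns were used. From the deposited log2 values, limma 3.58.1 (R 4.3.3) was fitted to the 12 endotoxin-stimulated arrays with terms for time and replication, leaving out 96 control probe sets. The fit had 6 residual and 4.90 prior degrees of freedom. Probe sets were called at a histogram q value under 0.05 (20 bins). Differences are 4 minus 2 hps ± SE. The vehicle comparison and the difference of changes used all 20 arrays. With 3 arrays a group, or 2, the number of arrays limits the precision.

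The paper gives different days for the replications in its RNA and QPCR methods, while its array methods name replications without a day. The replication number was taken to pair arrays, and that each number stands for 1 day is an assumption. Deviations of same-numbered arrays at 2 and 4 hps correlated at 0.112, -0.0532 and 0.321. Those of arrays with unlike numbers correlated at between -0.247 and 0.197, so only the pair of replication 3 stood above all of them. P values set a difference against the spread between these cultures that is left after the terms for group and replication. No pair of arrays held identical values (highest correlation 0.998).

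A gene is represented by its brightest probe set with 1 gene name. Of 38439 probe sets, 25798 had 1 name, 668 several and 11973 none, and the accessions of 7084 of 13782 named genes matched RefSeq (GRCg7b names only). Named are the 12 largest rises and 12 largest falls, called members of 38 gene lists in order of q up to 4, the genes the study names, and the 10 smallest p values each way without replication 3. The members and lists were chosen with earlier results of these data known. Alternatives covered the block, moderation, adjustment, weights, scaling, brightness, left-out arrays and the actin signal. The steps were tested on simulated data. Scans and QPCR values were not used here. Values of some single genes are not reported here.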

Additional observations from a re-analysis of the deposited data

Results flagged for a closer look

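For 4 probe sets the change from 2 to 4 hps differed between endotoxin-stimulated and vehicle-treated cells by limma's test of the difference between the changes (q = 0.0321 for each). The dimmer probe set of CD274 changed by 0.601 with endotoxin and -0.265 without, a difference of 0.866 ± 0.116, being higher in 3 of 3 stimulated and lower in 2 of 2 vehicle-treated replications. KLHL12, an adaptor of a ubiquitin ligase, changed by 0.465 (q = 0.059) and -0.614 on 1 of 4 probe sets, a difference of 1.08 ± 0.154, while its brightest probe set had -0.231. WDFY3, a scaffold of selective autophagy, changed by 0.191 (q = 0.29) and -0.70, a difference of 0.891 ± 0.129, on 1 of 5 probe sets. SLC24A1, a sodium, calcium and potassium exchanger, changed by -0.28 (q = 0.186) and 0.784, a difference of -1.06 ± 0.147, in the same direction in all replications of each treatment. For KLHL12, WDFY3 and SLC24A1 the larger part of the difference thus lay in the vehicle-treated arrays, which at 4 hps had the raised actin signal difference described above. With that signal in the model none of these 4 was called (limma, 3925 probe sets at an unadjusted p under 0.05), and 1 other, GDF2, was (-1.26). Without the term for replication, and without any 1 replication, 0 were called. CD274, KLHL12 and SLC24A1 were called again after cyclic loess.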

How the results depend on the processing

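The calls were sensitive to how the spread was estimated. No called difference changed sign, but the 235 had the same sign in all 3 replications and many alternatives leave the differences themselves as they are, so this says nothing of their stability. Of 84 probe sets named by the rule, 53 were called as reported. Among these 53, 53 were called again with trend and robust moderation, 50 in the fit to all 20 arrays, 39 with replication as a random effect (replicate block correlation 0.175, the other 14 at q values of 0.0504 to 0.0923), 13 without the replicate block, 14 without the replication 3 array of 2 hps, 4 without both replication 3 arrays of 1 and 2 hps, 4 with the actin signal and 1 in the fit to the 6 arrays of 2 and 4 hps alone. Random replication, cyclic loess, array weights and control probe sets kept both counts within 1.5 times.

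For stimulated cells, the counts higher and lower were 26 and 12 with no replicate block, 326 and 246 with all 20 arrays, 2 and 0 with the 6 arrays alone (3891 at an unadjusted p under 0.05), 78 and 48 after Benjamini-Hochberg adjustment, 50 and 30 without moderation, 637 and 451 with trend and robust moderation, 698 and 443 among the brighter probe sets, 614 higher after centring on ribosomal proteins, and 5 and 1 with the actin signal. With 1 replication or 1 of its arrays left out they ranged from 0 to 67 higher and from 0 to 44 lower, and without both replication 3 arrays of 1 and 2 hps, an alternative chosen after seeing the data as was the omission of the replication 1 array of 4 hps (67 and 44), they were 4 and 0. That array had the lowest weight, 0.397.

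For vehicle-treated cells the counts were 4 and 1 with no replicate block, 102 and 304 with trend and robust moderation, 122 and 398 among the brighter probe sets, 2 and 0 with the actin signal, and 0 to 3 higher and 0 to 0 lower with 1 replication left out. For the difference of the changes they were 0 and 0 with no replicate block, 304 and 139 with trend and robust moderation, 457 and 165 among the brighter probe sets, 0 higher with the actin signal, and 0 to 0 in both directions with 1 replication left out (4313 to 4758 at an unadjusted p under 0.05). The causes were not tested. With 3 stimulated and 2 vehicle-treated arrays a group, smaller changes may have been missed.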
